A study of Mus musculus with 4 samples.

Results

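Cd1d1 and 9 genes of classical and nonclassical MHC class I presentation were followed across the cell classes of the mouse liver in chow feeding, high-fat feeding and treatment with Jiangtang Qingre Formula. The genes were taken by their symbols: Cd1d1, B2m, H2-K1, H2-D1, H2-Q7, H2-T23, Tap1, Tap2, Tapbp and Nlrc5, which are 10 of the 32285 genes listed in the files, and all 10 were found. Single-cell RNA sequencing libraries were made from male C57BL/6J mice. There was 1 library of the normal chow diet group (NCD), 2 of the high-fat diet group (HFD) and 1 of the group given Jiangtang Qingre Formula (JQF), a herbal mixture. According to the methods of the study, the mice were a few weeks old at purchase. HFD and JQF mice ate the same high-fat diet for some months before an oral intervention of several weeks. JQF mice then received the herbal mixture, and NCD and HFD mice received distilled water. The methods give the same numbers for the livers collected, so NCD and JQF had no replicates. The p-values rest on the spread between the HFD livers only, drawn by the fit toward a spread shared over the genes of a class.

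MHC class I molecules are heavy chains that pair with beta-2 microglobulin and show peptides from inside the cell to CD8 T cells. The peptides are cut by the proteasome, carried into the endoplasmic reticulum by the transporter Tap1 and Tap2, and loaded with help from tapasin, the product of Tapbp. CD1d is a class I-like molecule, also paired with beta-2 microglobulin, that shows lipids in place of peptides and is the ligand of invariant natural killer T (iNKT) cells, which are abundant in mouse liver. In this organ CD1d is known on hepatocytes, Kupffer cells and other antigen-presenting cells. Nlrc5 is the transactivator of the class I heavy chains, B2m and Tap1, and acts through a promoter module that holds a CRE-like element and a CCAAT box.

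The files gave, after a minimum of 500 genes a cell and a limit of 20% mitochondrial UMIs, 5975 NCD cells, 6516 and 10259 HFD cells in replicates 1 and 2, and 8540 JQF cells. These cells held 67615639 to 108062769 UMIs a library, with a median of 13081 UMIs a cell in NCD and 7608 to 8884 in the others, and pairs of libraries shared 12 to 27 barcodes. Of 31290 cells, 91.5% fell into 1 of 16 marker-gated classes and 1873 lay near the limits of the gate. The labels name an immune cell type for each library, whereas hepatocytes, bile duct epithelium and endothelial cells were also found. In the 7 classes with at least 50 cells in every library, the median cell carried 4 to 8 markers of its own class and no more than 2 of the next class. A level is given as CPM, the usual scaling of the UMIs of a gene by all UMIs of its class in 1 library, and levels are compared between classes or libraries within a gene, not between genes.

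RefSeq promoters on GRCm38.p6 were found for 7 of the 10 genes. Those of B2m and of the heavy chains H2-K1, H2-D1 and H2-Q7 are shown because these genes form the assembled class I molecule and carry the module named above. Each runs from 180 bases before the start to 50 after it, 5′ to 3′ on the strand of the gene. Capitals mark matches on either strand to GAAANNGAA, the core of the interferon-stimulated response element, to CCAAT, to TGACG, the CRE-like core, and to GGGNNTTCC, a kB core.
B2m, chr2:122147507-122147736, plus strand: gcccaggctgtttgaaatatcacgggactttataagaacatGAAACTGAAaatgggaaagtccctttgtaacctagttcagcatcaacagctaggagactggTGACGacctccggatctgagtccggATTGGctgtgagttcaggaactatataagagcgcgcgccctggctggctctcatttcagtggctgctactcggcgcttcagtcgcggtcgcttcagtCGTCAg
H2-K1, chr17:34000298-34000527, minus strand: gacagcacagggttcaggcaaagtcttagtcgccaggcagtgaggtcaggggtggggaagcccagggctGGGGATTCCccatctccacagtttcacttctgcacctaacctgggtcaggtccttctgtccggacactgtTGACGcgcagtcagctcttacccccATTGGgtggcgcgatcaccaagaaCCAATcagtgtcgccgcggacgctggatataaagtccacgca
H2-D1, chr17:35262914-35263143, plus strand: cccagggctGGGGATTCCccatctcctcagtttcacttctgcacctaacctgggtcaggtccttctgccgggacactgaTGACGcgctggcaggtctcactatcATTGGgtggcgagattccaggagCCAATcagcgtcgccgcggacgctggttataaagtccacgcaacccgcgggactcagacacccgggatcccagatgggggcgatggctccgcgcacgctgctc
H2-Q7, chr17:35438975-35439204, plus strand: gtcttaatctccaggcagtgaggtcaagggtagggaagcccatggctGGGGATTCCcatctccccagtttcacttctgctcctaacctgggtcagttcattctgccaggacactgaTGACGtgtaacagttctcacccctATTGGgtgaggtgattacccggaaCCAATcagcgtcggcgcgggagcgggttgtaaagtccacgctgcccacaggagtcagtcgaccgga
In all 4 promoters the CRE-like core starts 24 or 25 bases before a CCAAT match, here read as ATTGG. These promoters were chosen in part for this module, so its presence in all 4 is no separate result. This spacing occurred in 62 of 32851 promoters (0.189%). It was not matched in the windows of Tap1, Tapbp or H2-T23. The kB core was matched in H2-K1, H2-D1 and H2-Q7, against 5.82% of all promoters. The interferon core was matched in B2m and H2-T23, against 8.56%. Only exact matches to this core were counted, so variants of the element are missed and its absence from the other promoters was not tested. CCAAT alone was matched in 37.4% of promoters and TGACG alone in 20.8%.

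Most of the genes lie together in the MHC. In GRCm38 (GENCODE M21), Tapbp spans chr17:33915899-33929292, H2-K1 chr17:33996017-34000347, Tap1 chr17:34187553-34197225, Tap2 chr17:34203527-34216321, H2-D1 chr17:35262730-35267499, H2-Q7 chr17:35439155-35443773 and H2-T23 chr17:36029773-36032855. Cd1d1 lies at chr3:86995834-86999441, B2m at chr2:122147686-122153083 and Nlrc5 at chr8:94434356-94527272. Heavy chains are close paralogs, so shared sequence at the 3′ end, where this assay reads, was checked. Of 411 windows of 90 bases at the end of the longest transcript, 0 were found in another gene for 9 of the 10 genes. For H2-T23, 50 windows (12.2%) were shared with Rab33b or Hook2, and its UMIs are less certain for that reason.

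Cd1d1 stood highest in hepatocytes in every library. Hepatocytes held 132 CPM in NCD, 102 and 78.8 CPM in HFD replicates 1 and 2, and 85.6 CPM in JQF, a range that did not overlap that of any other class. Mature dendritic cells (DC) followed with 11.3, 51.0, 32.5 and 37.4 CPM in the same order, where the NCD value rested on 4 UMIs from 14 cells. Macrophages came next, with 55.2 CPM in NCD, 14.8 and 19.3 CPM in HFD and 11.5 CPM in JQF. Bile duct epithelium held 8.21 to 22.3 CPM and B cells 6.83 to 14.6 CPM. At the low end neutrophils held 0 to 2.98 CPM and nonclassical monocytes 0 to 5.07 CPM. Among neighbours in this order below hepatocytes the ranges of the libraries overlapped for every pair except monocytes and conventional type 2 DC.

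RNA outside cells also carried Cd1d1. In barcodes of at most 100 UMIs that were not called as cells, Cd1d1 stood at 27.3 CPM in NCD, 17.9 and 29.97 CPM in HFD and 23.1 CPM in JQF. Hepatocytes exceeded this in 4 of 4 libraries, mature DC in 3, and macrophages and bile duct epithelium in 1 each, whereas the other 12 classes exceeded it in none. T cells (6.34 to 7.50 CPM), endothelial cells (3.95 to 7.36 CPM) and classes near them lay below this background in every library. The CPM of RNA outside cells gives its make-up, for this and the other genes below, not the amount of it within a cell. How much of the Cd1d1 in these cells came from it was not tested.

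**Figure D1:**
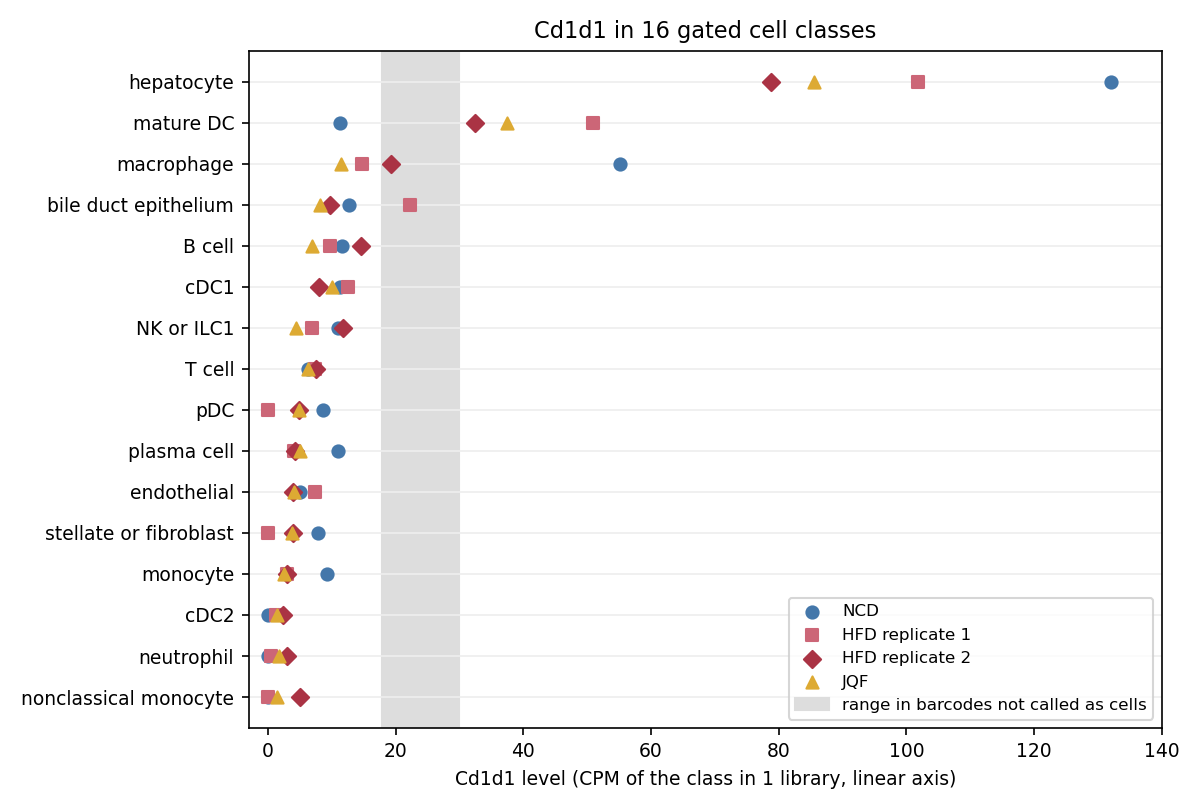
Cd1d1 level in CPM (x axis, linear) in 16 gated cell classes (y axis), with 1 point for each library and a grey band for the range in barcodes not called as cells. Hepatocytes lie at 78.8 to 132 CPM, right of every other point, and 12 classes lie below the RNA outside cells in each library.

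Among the NCD classes above that background, hepatocytes were 2.34% of cells and held 12.3% of the Cd1d1 UMIs, and macrophages were 2.68% of cells and held 18.0%. Endothelial cells, below the background at 4.96 CPM, were 64.4% of NCD cells and held 43.4% of these UMIs. Mature DC held 16.7% and 7.44% in HFD replicates 1 and 2 and 13.9% in JQF, at 1.86% to 2.39% of cells.

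In macrophages Cd1d1 fell with high-fat feeding. The 55.2 CPM of NCD lay above the 14.8 and 19.3 CPM of HFD, which gave -1.61 on the log2 scale (SE 0.24, adjusted p = 0.0361, edgeR quasi-likelihood test). The NCD level lay above that of RNA outside cells (27.3 CPM) and both HFD levels lay below it (17.9 and 29.97 CPM), so the size of the change is uncertain. Lower calls made up 4.68% of the genes tested in macrophages, and Cd1d1 was the 1 gene of the 10 called there. With classes taken from Leiden clusters the change was -1.39 with an adjusted p of 0.0712 (edgeR), so the call was lost.

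The make-up of the macrophage class moved with the diet. Kupffer-like cells, gated on at least 4 of the markers Clec4f, Vsig4, Timd4, Cd5l, Folr2 and Marco, took up 81.2% of the NCD macrophages, 6.45% and 44.3% of those in HFD replicates 1 and 2, and 48.9% of those in JQF. Within Kupffer-like cells Cd1d1 stood at 62.0 CPM in NCD (138 UMIs, exact Poisson 95% interval 52.1 to 73.3). The HFD values were 20.3 CPM (18 UMIs, 12.0 to 32.1) and 26.0 CPM (393 UMIs, 23.5 to 28.7), and JQF stood at 15.5 CPM (49 UMIs, 11.5 to 20.5). The NCD interval overlapped none of the other 3, and RNA outside cells was exceeded in NCD and HFD replicate 1 only. Other macrophages held 9.04 CPM in NCD from 3 UMIs (1.87 to 26.4), 14.2 and 13.4 CPM in HFD and 7.70 CPM in JQF, and the NCD interval there covered every other value. These intervals cover counting error only, and no test between libraries was made within the subsets, where HFD replicate 1 held 46 Kupffer-like cells.

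Hepatocyte RNA in macrophages was measured by 8 hepatocyte markers, which summed to 191 CPM in NCD, 64.1 and 104 CPM in HFD and 148 CPM in JQF. At the ratio of Cd1d1 to these markers in hepatocytes of the same library, such RNA would carry 0.510 CPM of Cd1d1 in NCD macrophages, 0.159 and 0.279 CPM in HFD and 0.266 CPM in JQF. The part of RNA outside cells as a whole was not tested.

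**Figure D2:**
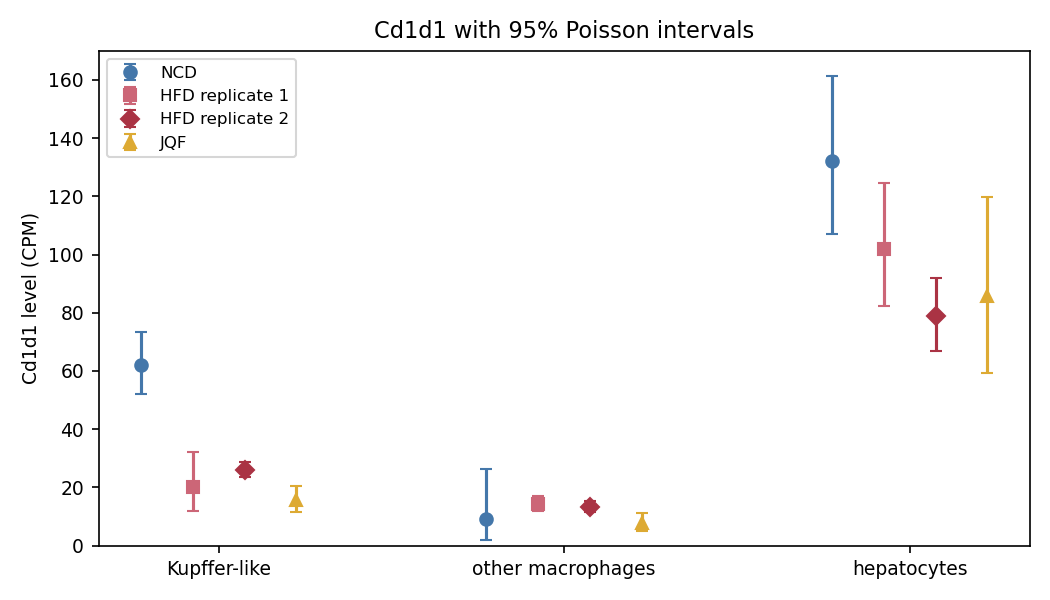
Cd1d1 level in CPM (y axis) in Kupffer-like cells, other macrophages and hepatocytes (x axis), with 1 point for each library and bars for exact Poisson 95% intervals, which cover counting error only. Among Kupffer-like cells the NCD point at 62.0 CPM stands clear of the other libraries at 15.5 to 26.0 CPM.

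Hepatocytes themselves held too few cells for the test, with 49 in JQF. Their Cd1d1 intervals were 107 to 161 CPM in NCD, 82.2 to 125 and 66.9 to 92.1 CPM in HFD and 59.3 to 120 CPM in JQF. The NCD interval overlapped those of HFD replicate 1 and JQF and lay above that of HFD replicate 2. In the other classes tested for HFD against NCD the log2 fold change of Cd1d1 ran from -0.51 to 0.20 and none was called, and in neutrophils it was too low to be tested.

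Microsomal triglyceride transfer protein, encoded by Mttp, loads lipids onto CD1d and is better known for assembling lipoproteins. In macrophages Mttp fell from 15.6 CPM in NCD to 3.10 and 2.40 CPM in HFD, a change of -2.47 on the log2 scale (SE 0.31, adjusted p = 0.0345, edgeR), and stood at 8.42 CPM in JQF. It also fell in endothelial cells, from 20.1 to 11.04 and 2.52 CPM, by 2.34 on the log2 scale (SE 0.52, adjusted p = 0.000117, edgeR). Hepatocyte markers moved the same way in macrophages, as given above, and in endothelial cells, from 198 CPM in NCD to 109 and 185 CPM in HFD. Their part in the Mttp values was not tested.

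Across the 14 genes of CD1d lipid loading and trafficking, 19 of 96 tests over the 7 classes were higher in HFD (19.8%) and 6 lower (6.25%). Over all genes 6.19% of tests were higher and 7.96% lower. The higher calls included Psap, which encodes the saposins that transfer sphingolipids, in B cells, neutrophils, NK cells and T cells. Gm2a, the GM2 activator, was higher in B cells, endothelial cells, macrophages and T cells. In macrophages it went from 207 CPM to 465 and 480 CPM, a change of 1.26 on the log2 scale (SE 0.20, adjusted p = 0.0382, edgeR). Ctss, a lysosomal cathepsin, was higher in endothelial cells, neutrophils, NK cells and T cells, and Apoe in B cells, type 1 conventional DC (cDC1), neutrophils and NK cells. Gla, the lysosomal alpha-galactosidase, fell in B cells, endothelial cells and T cells.

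Macrophage RNA was also higher in several of these classes. The 6 macrophage markers summed to 9.22 CPM in T cells of NCD against 35.4 and 104 CPM in HFD, and to 7.29 against 24.6 and 127 CPM in NK cells. All 6 were detected in T cells of every library, while 3 of 6 were detected in NK cells of NCD. The sum went from 25.9 to 39.2 and 127 CPM in B cells and from 24.9 to 97.6 and 121 CPM in cDC1. It went from 69.4 to 88.3 and 240 CPM in endothelial cells and from 253 to 272 and 354 CPM in neutrophils. Ctss, Apoe, Psap and Gm2a are expressed in macrophages, and the part of such RNA in their changes was not tested.

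Across the 28 levels of the 7 tested classes in 4 libraries, the genes whose pattern was most like Cd1d1 by Pearson correlation on the log2 scale were Ccdc50 (r = 0.888), Nipa2 (0.881) and Ddhd1 (0.877) among 9062 genes. H2-M3, a nonclassical class I gene, came next at 0.864 and reached 0.920 without macrophages. Of the other class I genes studied here, H2-K1 was the most alike with r = 0.38 at rank 3324. Cd1d1 lay above RNA outside cells in 1 of these 28 levels, NCD macrophages, and points of 1 library share its depth and its background. These values are a description and no sign of shared expression.

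The peptide-presenting genes went mostly upward with high-fat feeding. Both HFD libraries lay above NCD in 55 of the 69 tests of the 10 genes over 7 classes and below it in 6, shares of 79.7% and 8.70%, against 48.2% and 35.5% of the tests of all genes. With TMM factors applied to the levels these counts were 52 and 8, against 44.5% and 39.3% of all genes. All these tests compare the same libraries, so the counts are not of independent observations. Of the 69 tests 20 were called higher and 2 lower. The share called was 31.9%, against 14.1% of the 85752 tests of all genes. Calls were uneven across classes, with 7 in neutrophils, 4 each in T cells, NK cells and B cells, and 1 each in cDC1, macrophages and endothelial cells. The pull toward the shared spread also differed, with prior degrees of freedom of 3.49 in macrophages, 4.37 in cDC1 and 53.4 in neutrophils. They were infinite in endothelial cells, so each p-value of that class rests on the shared spread alone. The counts therefore depend on the test in each class as well as on the changes. Higher calls made up 6.46% of all genes tested in neutrophils, 3.98% in T cells, 7.65% in NK cells, 7.6% in B cells and 5.67% in cDC1. In macrophages and endothelial cells 0 of the 10 genes were called higher, against 5.66% and 7.2% of all genes. The median log2 fold change of the 10 genes was 1.20 in neutrophils, 0.75 in B cells, 0.71 in T cells, 0.51 in NK cells, 0.25 in cDC1, 0.17 in macrophages and 0.14 in endothelial cells, whereas that of all genes tested was 0.01 to 0.13 over the classes.

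**Figure D3:**
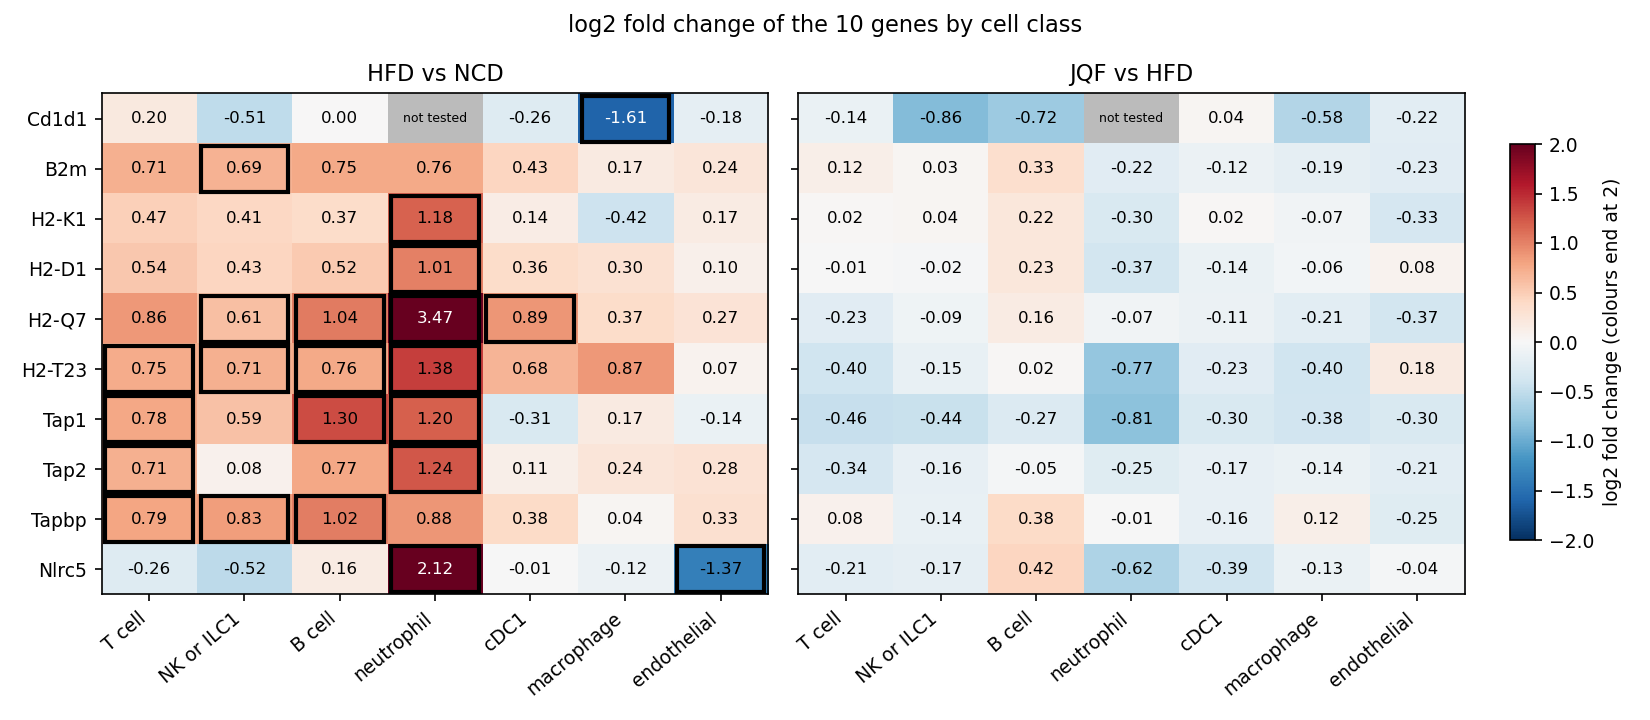
Log2 fold change of the 10 genes (rows) in 7 cell classes (columns) for HFD against NCD (left) and JQF against HFD (right), by colour and printed value, with black boxes for adjusted p under 0.05. Of 22 boxes on the left, 19 lie in the lymphocyte and neutrophil columns, and there are 0 boxes on the right.

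The composition of the RNA also differed between the groups. Ribosomal protein transcripts took a larger share of UMIs in both HFD libraries than in NCD in all 7 classes, by 0.57 (cDC1) to 1.18 (macrophages) on the log2 scale. In T cells the share was 11.4% in NCD, whereas HFD had 16.9% and 18.6% and JQF 19.3%. Actb, a cytoskeletal gene often used as a reference, was higher in HFD by 0.59 to 1.07 on the log2 scale. The 8 hepatocyte markers summed to 445 CPM in NCD neutrophils against 112 and 172 CPM in HFD. Their sum was 230 against 65.9 and 97.6 CPM in T cells, 222 against 41.3 and 124 CPM in B cells and 146 against 37.1 and 101 CPM in NK cells. The part of these shifts in the calls was not tested. With ribosomal protein UMIs in place of the library size, a scaling chosen after the data were seen, the number of calls was again 22, but 1 was higher and 21 were lower. The higher call was H2-Q7 in neutrophils, and the lower ones were 9 genes in macrophages, 9 in endothelial cells, Nlrc5 in NK and T cells and Tap1 in cDC1. That scaling moved the median of all genes to between -0.34 and -1.18 in the 7 classes, so the directions that follow hold relative to all transcripts and not relative to ribosomal protein transcripts.

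**Figure D4:**
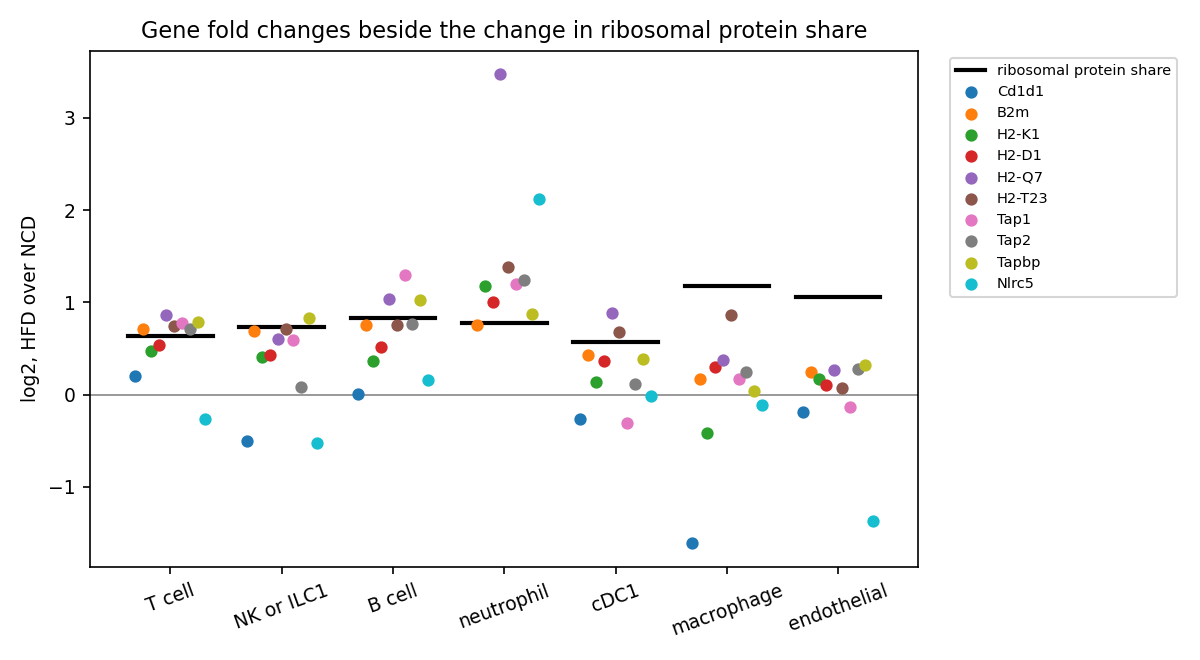
Log2 fold change, HFD over NCD (y axis), of each of the 10 genes (coloured points) and of the ribosomal protein share (black bar) in 7 classes (x axis). In macrophages and endothelial cells every gene lies below the bar. In neutrophils each tested gene except B2m lies above it, with H2-Q7 at 3.47 and Nlrc5 at 2.12. The remaining classes hold genes on both sides.

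B2m, the light chain shared by class I molecules and CD1d, was detected in every class. Its median level over the libraries ran from 732 CPM in bile duct epithelium, 1055 CPM in stellate cells or fibroblasts and 1464 CPM in hepatocytes to 3685 CPM in macrophages and 4113 CPM in mature DC. In NK cells B2m rose from 1672 CPM in NCD to 3101 and 3113 CPM in HFD, a change of 0.69 on the log2 scale (SE 0.19, adjusted p = 0.0134, edgeR). JQF stood at 2912 CPM, and the call was lost with Leiden clusters. Both HFD libraries lay above NCD in the other 5 classes apart from macrophages, where 3701 CPM in NCD fell between 3670 and 4290 CPM in HFD, but none of these was called. B cells came nearest, with 833 CPM in NCD against 1388 and 1555 CPM (log2 0.75, SE 0.22, adjusted p = 0.0506, edgeR).

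The classical heavy chains H2-K1 and H2-D1 rose in neutrophils alone among the calls. Neutrophil H2-K1 went from 393 CPM in NCD to 899 and 953 CPM in HFD, a change of 1.18 on the log2 scale (SE 0.31, adjusted p = 0.00745, edgeR). Neutrophil H2-D1 went from 1189 to 2311 and 2676 CPM, a change of 1.01 on the log2 scale (SE 0.29, adjusted p = 0.0133, edgeR). JQF stood below both HFD libraries for each, at 783 and 2009 CPM. Elsewhere H2-D1 lay between 0.10 and 0.54 on the log2 scale with both HFD libraries above NCD in every class. H2-K1 in macrophages was the exception in direction, with 2069 CPM in NCD against 1413 and 1544 CPM in HFD (log2 -0.42, SE 0.23, adjusted p = 0.263, edgeR), which was not called.

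H2-Q7 belongs to the Qa-2 group of nonclassical class I molecules. Its level followed cell class closely: NK cells (552 to 979 CPM) and T cells (482 to 913 CPM) held the highest medians, and macrophages (57.1 to 74.6 CPM) and neutrophils the low end. In neutrophils it stood at 5.06 CPM in NCD from 3 UMIs, at 54.6 and 64.2 CPM in HFD and at 59.1 CPM in JQF. The ratio of the pooled HFD level to NCD was 11.8 with a 95% counting interval of 3.98 to 57.6, and the fitted change was log2 3.47 (SE 0.62, adjusted p = 6.9e-05, edgeR).

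T and NK cells hold much H2-Q7, so their markers in neutrophils bear on this value. The 6 T cell markers summed to 20.2 CPM in NCD neutrophils, 26.2 and 49.2 CPM in HFD and 185 CPM in JQF, with Cd3e and Trac at 0 in NCD and all 6 detected in the others. The 6 NK cell markers summed to 6.75, 37.9, 15.9 and 42.9 CPM in the same order, with 4 of 6 at 0 in NCD. At the ratio in T cells of the same library, T cell RNA would carry 3.68 CPM of H2-Q7 in NCD neutrophils, 6.61 and 11.2 CPM in HFD and 40.7 CPM in JQF. NK cell RNA, estimated in the same way, would carry 1.36, 9.34, 2.96 and 7.03 CPM. Barcodes not called as cells held 218 CPM of H2-Q7 in NCD, 411 and 292 CPM in HFD and 327 CPM in JQF, above every neutrophil level, and the part of such RNA was not tested. These estimates assume that the carried RNA has the profile of the T or NK cells of the library.

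H2-Q7 was also higher in 3 other classes. In B cells it rose from 91.5 CPM to 196 and 198 CPM, a change of 1.04 on the log2 scale (SE 0.21, adjusted p = 0.0151, edgeR). In cDC1 it rose from 67.9 to 136 and 138 CPM, by 0.89 on the log2 scale (SE 0.18, adjusted p = 0.0362, edgeR), and it was the 1 gene called in that class. In NK cells it rose from 552 to 979 and 965 CPM (log2 0.61, SE 0.19, adjusted p = 0.0304, edgeR). T cells held 482 CPM in NCD and 885 and 913 CPM in HFD, which just missed the threshold (log2 0.86, SE 0.24, adjusted p = 0.0502, edgeR). The B cell and cDC1 levels lay below those of RNA outside cells in every library. T cell markers were also higher in cDC1 of HFD, at 3.61 CPM in NCD against 40.8 and 14.9 CPM, and in B cells, at 19.7 CPM against 45.8 and 61.5 CPM. The part of such RNA in the H2-Q7 changes was not tested. With doublets removed H2-Q7 was no longer called in cDC1.

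H2-T23 encodes Qa-1, the nonclassical molecule that binds leader peptides of other class I chains and is read by the CD94-NKG2A receptor of NK and T cells. It rose in neutrophils from 70.9 CPM to 198 and 186 CPM (log2 1.38, SE 0.36, adjusted p = 0.00687, edgeR). In T cells it rose from 172 to 302 and 293 CPM (log2 0.75, SE 0.20, adjusted p = 0.0455, edgeR). In NK cells and B cells it rose by 0.71 and 0.76 on the log2 scale. Macrophages held 202 CPM in NCD against 350 and 353 CPM in HFD, a log2 fold change of 0.87 that was not called (SE 0.18, adjusted p = 0.0557, edgeR). Endothelial cells held the highest median of the tested classes and the smallest change, with 381 CPM in NCD and 498 and 401 CPM in HFD.

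Tap1 and Tap2 make up the peptide transporter. In B cells Tap1 rose from 33.6 CPM to 85.6 and 87.9 CPM, a change of 1.30 on the log2 scale (SE 0.22, adjusted p = 0.00946, edgeR). In neutrophils it rose from 45.5 to 114 and 104 CPM (log2 1.20, SE 0.38, adjusted p = 0.0302, edgeR), and in T cells from 73.0 to 132 and 126 CPM (log2 0.78, SE 0.19, adjusted p = 0.0324, edgeR). Tap1 in cDC1, the tested class with the highest level, went the other way without a call, from 203 CPM in NCD to 184 and 173 CPM in HFD. Barcodes not called as cells held 51.7 CPM of Tap1 in NCD, 138.2 and 104.4 CPM in HFD and 74.5 CPM in JQF. The B cell and neutrophil levels lay below these in every library, and the T cell level did so in HFD replicate 1 only. The part of such RNA was not tested.

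Tap2 was called in neutrophils and T cells. Neutrophil Tap2 rose from 40.5 to 103 and 97.0 CPM (log2 1.24, SE 0.39, adjusted p = 0.0269, edgeR). In T cells it rose from 75.7 to 131 and 123 CPM (log2 0.71, SE 0.19, adjusted p = 0.0435, edgeR). In NK cells the Tap2 levels were 82.0, 107 and 92.5 CPM, a log2 fold change of 0.08 (SE 0.27). Barcodes not called as cells held 66.4 CPM of Tap2 in NCD, 108 and 86.9 CPM in HFD and 68.6 CPM in JQF. Neutrophils lay below these in NCD and HFD replicate 1, and the part of such RNA was not tested.

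Tapbp, which bridges the transporter and the empty heavy chain, rose in all 3 lymphocyte classes. In B cells it went from 46.9 to 101 and 98.4 CPM, by 1.02 on the log2 scale (SE 0.21, adjusted p = 0.0162, edgeR). In NK cells the levels were 98.4 CPM in NCD and 203 and 202 CPM in HFD (log2 0.83, SE 0.24, adjusted p = 0.0167, edgeR). T cells went from 84.5 to 159 and 141 CPM (log2 0.79, SE 0.19, adjusted p = 0.0334, edgeR). Macrophages held 251 CPM in NCD, between the 224 and 267 CPM of HFD.

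**Figure D5:**
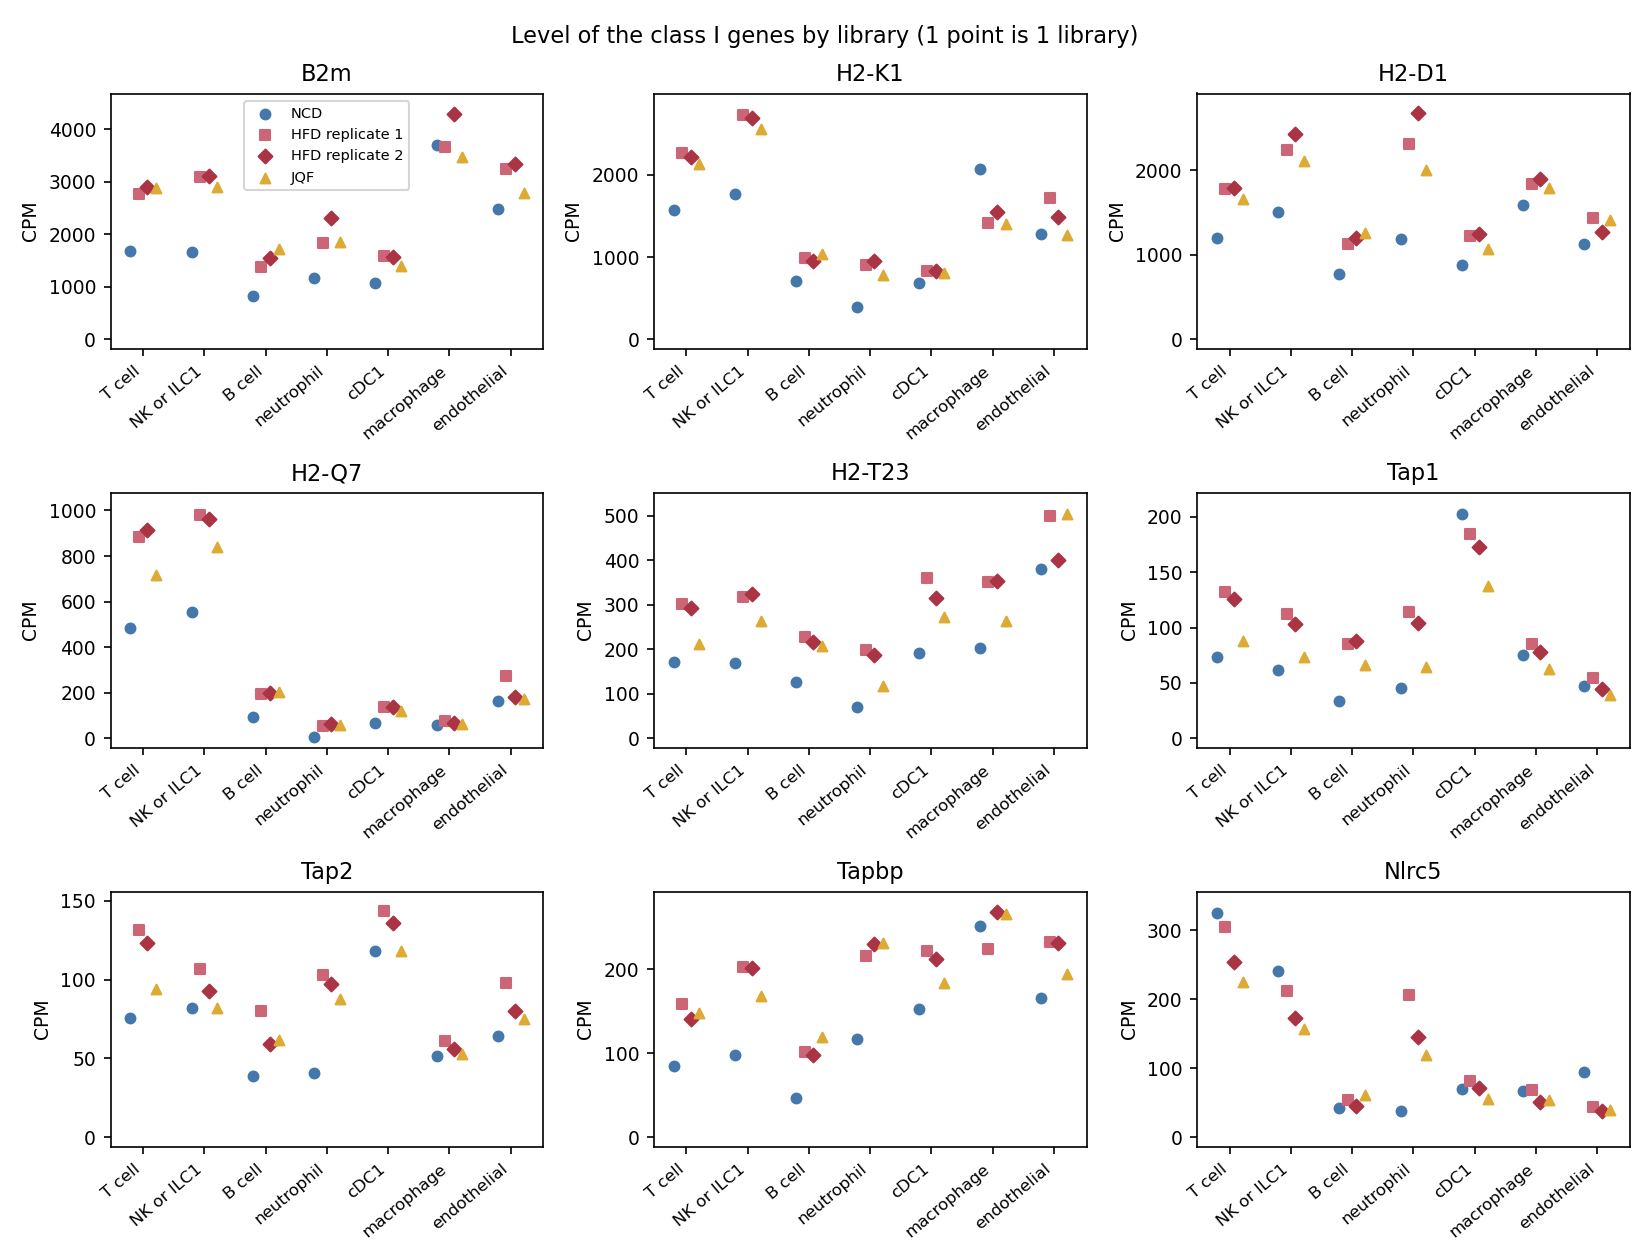
Level in CPM (y axis, a separate scale for each gene) of B2m, the heavy chains, Tap1, Tap2, Tapbp and Nlrc5 in 7 cell classes (x axis), with 1 point for each library. NCD points lie below both HFD points in most lymphocyte and neutrophil positions, and Nlrc5 in endothelial cells shows the reverse, 94.8 CPM against 38.8 and 44.2 CPM.

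Nlrc5, the transactivator, moved in opposite directions in different classes. T cells (226 to 325 CPM) and NK cells (157 to 241 CPM) held the highest levels of the tested classes. In neutrophils Nlrc5 rose from 38.8 CPM to 206 and 145 CPM, a change of 2.12 on the log2 scale (SE 0.41, adjusted p = 0.000174, edgeR), with 119 CPM in JQF. In endothelial cells it fell from 94.8 CPM to 44.2 and 38.8 CPM, a change of -1.37 on the log2 scale (SE 0.25, adjusted p = 2.14e-06, edgeR), with 39.3 CPM in JQF. This p-value rests on the shared spread alone, and in liver sinusoidal-like cells by themselves the adjusted p was 0.0453 (edgeR). Lower calls made up 8.19% of all genes in endothelial cells. The difference between those changes, tested as an interaction chosen after the values were seen, was 3.57 on the log2 scale (SE 0.52, adjusted p = 7.56e-09 over 12586 genes, edgeR). Barcodes not called as cells held 82.2 CPM of Nlrc5 in NCD, 152 and 88.8 CPM in HFD and 97.3 CPM in JQF. NCD neutrophils and both HFD endothelial levels lay below these, so the sizes of both changes are uncertain, and the part of such RNA was not tested. The heavy chains and B2m had log2 fold changes of 0.07 to 0.27 in endothelial cells, and none was called.

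Calls in neutrophils rested on 103 NCD cells with 592777 UMIs. With classes taken from Leiden clusters, 0 of the 7 neutrophil calls remained, H2-Q7 going to 2.09 with an adjusted p of 0.0573 and Nlrc5 to 2.13 with an adjusted p of 0.0751 (edgeR). DESeq2 kept 4 of the 7, namely H2-D1, H2-K1, H2-Q7 and Nlrc5. It kept 2 of 4 calls in T cells and 0 in B cells, NK cells and cDC1. With doublets removed, the calls of H2-T23 and Tap2 in T cells, H2-T23 in NK cells and H2-Q7 in cDC1 were lost. With Leiden clusters Tapbp alone remained of the 4 NK cell calls, and Nlrc5 was called lower there. In T cells without iNKT-like cells, Tapbp alone remained of the 4 calls at 0.89 on the log2 scale. H2-T23, Tap1 and Tap2 stood at 0.78, 0.74 and 0.72 there, with adjusted p of 0.0576, 0.0555 and 0.0590 (edgeR), against 0.75, 0.78 and 0.71 with all T cells.

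The proteasome makes the peptides. Of the immunoproteasome subunits Psmb8, Psmb9 and Psmb10 and the activator subunits Psme1 and Psme2, 14 of 35 tests were higher in HFD (40.0%, against 6.19% of all genes) and 0 lower, with 0 calls in cDC1 and endothelial cells. All 5 were called in B cells, where Psme1 went from 74.7 CPM to 198 and 189 CPM (log2 1.30, SE 0.21, adjusted p = 0.00769, edgeR). In macrophages, where 0 of the 10 class I genes were called higher, Psmb8 rose from 127 to 283 and 254 CPM (log2 1.14, SE 0.18, adjusted p = 0.0386, edgeR). Psme2 was called there as well. The constitutive subunits Psmb5, Psmb6 and Psmb7 gave 7 higher calls of 21 (33.3%) and 0 lower, in B cells, cDC1, macrophages and neutrophils.

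Peptide loading helpers had higher calls in 5.71% of tests and lower calls in 2.86%, against 6.19% and 7.96% of all genes. Of 35 tests of Calr, Canx, Pdia3, Erap1 and Tapbpl, 2 were higher, both in endothelial cells, and 1 was lower, Canx in B cells, so 8.57% were called against 14.1% of all genes. The chaperone Calr went from 186 CPM to 584 and 684 CPM in endothelial cells (log2 1.62, SE 0.27, adjusted p = 8.22e-08, edgeR). Among 13 further class I and class I-like genes found in the files, 3 of 60 tests were higher and 1 lower, or 6.67% called. H2-M3, which presents formylated peptides, rose in T cells from 25.2 to 43.9 and 47.1 CPM (log2 0.81, SE 0.21, adjusted p = 0.0414, edgeR). H2-Q4 fell in endothelial cells from 237 to 172 and 102 CPM, by 1.00 on the log2 scale.

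Regulators upstream moved in both directions. Of 69 tests of 10 genes of class I transactivation and interferon signalling, 2 were higher and 9 lower. The 15.9% called is near the 14.1% of all genes, and fold changes were positive in 37 tests and negative in 32. The lower calls came from Irf1, Ifnar1 and Ifngr1. Irf1, an interferon-induced transcription factor, fell in endothelial cells from 840 CPM to 133 and 179 CPM (log2 -2.56, SE 0.24, adjusted p = 3.81e-24, edgeR), and also in B cells, cDC1 and NK cells. In neutrophils Irf1 rose from 356 to 935 and 634 CPM (log2 1.08, SE 0.32, adjusted p = 0.0185, edgeR). Ifnar1, a chain of the type I interferon receptor, fell in B cells, cDC1, NK cells and T cells, by 0.84 to 1.34 on the log2 scale.

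Receptors for class I and CD1d on lymphocytes were followed as the partners of these ligands. Over the 7 classes 10 of 43 tests were higher (23.3%) and 2 lower (4.65%), against 6.19% and 7.96% of all genes. Of the higher calls 5 were outside T and NK cells, namely Cd8a in B cells, Klrd1 in cDC1 and neutrophils, and Pirb and Zbtb16 in endothelial cells. T cell markers summed to 19.7 CPM in B cells of NCD against 45.8 and 61.5 CPM in HFD, and NK cell markers, Klrd1 among them, to 22.5 against 93.6 and 67.2 CPM in cDC1. The part of such RNA in these calls was not tested. In T cells Cd8a, the coreceptor for class I, went from 131 CPM to 274 and 371 CPM (log2 1.27, SE 0.26, adjusted p = 0.0186, edgeR). Zbtb16, the transcription factor of iNKT cells, fell from 542 CPM to 91.9 and 69.0 CPM in T cells (log2 -2.80, SE 0.21, adjusted p = 0.000308, edgeR). Trav11, a V gene of the iNKT receptor alpha chain, rose in T cells from a low 1.15 CPM to 6.08 and 3.65 CPM (log2 2.02, SE 0.51, adjusted p = 0.0388, edgeR), so these iNKT genes went in opposite directions. Cells with at least 3 of the 6 markers Zbtb16, Klrb1c, Cxcr6, Il4, Trav11 and Icos were gated as iNKT-like. This gate includes Zbtb16 and Trav11, so its share is not independent of their changes. The iNKT-like cells took up 30.2% of the NCD T cells, 11.4% and 9.88% of those in HFD and 47.9% of those in JQF. Their own Cd1d1 level was 5.39 to 6.73 CPM, below the RNA outside cells.

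Treatment with JQF was compared with HFD on the same libraries, so its values share the HFD samples with those above. Of the 69 tests of the 10 genes, 0 were called by edgeR, the smallest adjusted p being 0.378. DESeq2 also called 0, and 4 tests had an unadjusted p under 0.05, namely Tap1 in T cells and neutrophils, H2-T23 in neutrophils and Nlrc5 in cDC1. Over all genes 5.70% to 14.9% of tests in a class had such a p. Calls over all genes were few in this comparison, with 0.833% of genes in T cells, 4.01% in NK cells, 0.182% in B cells, 0.915% in neutrophils, 0% in cDC1, 0.00753% in macrophages and 1.87% in endothelial cells.

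Without a call, JQF lay below both HFD libraries in 50 of 69 tests, above both in 8 and between them in 11. JQF lay below both for 39.4% of the tests of all genes and above both for 31.2%. With TMM factors applied, the counts were 43 below and 13 above, against 34.7% and 35.7% of all genes. Each test used the same single JQF library, so these counts are not of independent observations either. The median log2 fold change of the 10 genes was -0.30 in neutrophils to 0.19 in B cells, whereas that of all genes was -0.03 to 0.00 over the classes. Tap1 lay below both in all 7 classes, with log2 fold changes of -0.27 to -0.81. RNA outside cells also held less Tap1 in JQF, at 74.5 CPM against 138 and 104 CPM in HFD. Neutrophils, B cells, NK cells, macrophages and endothelial cells lay below that background in JQF, and T cells and cDC1 lay above it. Its part in the Tap1 values was not tested. In T cells JQF held 87.8 CPM of Tap1 against 132 and 126 CPM in HFD (log2 -0.46, SE 0.18, adjusted p = 0.415, edgeR). In neutrophils it held 64.6 CPM against 114 and 104 CPM (log2 -0.81, SE 0.32, adjusted p = 0.471, edgeR). H2-T23 lay below both in 6 of 7 classes, and T cells held 211 CPM against 302 and 293 CPM (log2 -0.40, SE 0.19, adjusted p = 0.578, edgeR). B cells went the other way for most genes, and JQF lay above both HFD libraries there for B2m, H2-K1, H2-D1, H2-Q7, Tapbp and Nlrc5.

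Cd1d1 in macrophages stood lower in JQF than in either HFD library, at 11.5 CPM against 14.8 and 19.3 CPM, and was not called (log2 -0.58, SE 0.26, adjusted p = 0.558, edgeR). All 3 values were below the RNA outside cells of their libraries, so no order is read from them. In the lists around these genes 3 of 43 tests of receptors (6.98%) and 3 of 96 of CD1d lipid loading (3.12%) were called, against 1.051% of all genes. Zbtb16 rose in T cells from 91.9 and 69.0 CPM in HFD to 335 CPM in JQF (log2 2.16, SE 0.21, adjusted p = 0.00558, edgeR), and Cd8a fell from 274 and 371 to 102 CPM (log2 -1.58, SE 0.26, adjusted p = 0.0339, edgeR). Klra1, an NK receptor of class I, rose in T cells by 1.49 on the log2 scale. Ctss fell in endothelial cells and NK cells, where macrophage markers summed to 88.3 and 240 CPM in HFD against 87.3 CPM in JQF and to 24.6 and 127 CPM against 17.3 CPM, and the part of such RNA was not tested. Gla rose in NK cells, while the proteasome, peptide loading, interferon and other class I lists had 0 calls.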

How the data were processed

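Single-cell libraries of mouse liver suspensions were made by the authors with a 10x Genomics 3′ kit, and live cells were enriched after digestion and lysis of red cells. The deposited values are UMI counts per gene and barcode, with no normalization. The submitters' processing notes name Cell Ranger 6.0.1, Seurat 4.0.3 and mm10, whereas the file headers name other Cell Ranger versions, so whether introns were counted is not settled. The 10 genes and the gene lists were chosen with earlier results of these data known.

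Cells were gated into classes from marker lists by a score of at least 0.15, a gap of 0.05 to the next class and at least 2 markers detected. "T cell" and the other names therefore mean marker-gated cells, and "NK cells" stands for the class of NK cells or ILC1. Doublets were kept, and their removal was an alternative. UMI counts were summed per library and class in Python 3.11.15 with scanpy 1.11.5. Each class was tested over all its genes with edgeR 4.0.16 in R 4.3.3 (quasi-likelihood test, TMM, filterByExpr, group only, 4 libraries), with Benjamini-Hochberg adjustment per class at 0.05. Only the HFD pair informed the spread, with 1 residual degree of freedom, and NCD and JQF were taken to vary as that pair did. The fit drew the spread of each gene toward one shared over the genes of its class. The prior degrees of freedom for this were 3.49 in macrophages, 4.37 in cDC1, 7.23 in B cells and 7.81 in T cells. They were 21.4 in NK cells and 53.4 in neutrophils, so p-values there rest mostly on the shared spread. In endothelial cells they were infinite, so p-values of that class rest on it alone. Standard errors were approximated from the F statistic. An exact permutation test over 4 libraries cannot reach 0.05 and was not used, so levels across classes are descriptions. Scripts were tested on simulated data for HFD against NCD. In each class 200 genes were changed, a smaller share than was called in the real data, so the shares found need not hold there. Of genes changed 1.5-fold, 0% (cDC1 and neutrophils) to 5.97% (NK cells) were called. The share was 5.97% (neutrophils) to 25.4% (T cells) at 2-fold and 45.5% (neutrophils) to 74.2% (macrophages) at 4-fold. Absence of a call therefore does not show absence of a change. Depth was 67615639 to 108062769 UMIs a library. Genes named are the 10 and those of the fixed lists. The genes most alike to Cd1d1 were ranked by Pearson correlation of log2(CPM + 1) over 28 levels, among genes with a mean of at least 10 CPM. Alternatives were library totals without TMM, DESeq2 1.42.0, no filter on low counts, doublet removal, Leiden clusters, a stricter gate, a lower gene minimum and leaving out each HFD library. Added after the data were seen were T cells without iNKT-like cells, sinusoidal-like endothelial cells only and ribosomal protein UMIs as library size, as were the estimates of carried RNA.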

Additional observations from a re-analysis of the deposited data

Results flagged for a closer look

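The response of Nlrc5 to high-fat feeding differed between endothelial cells and neutrophils. Its log2 fold change, HFD against NCD, was -1.37 in endothelial cells and 2.12 in neutrophils, with the HFD libraries both below NCD in the first class and both above it in the second. The interaction test of the difference gave 3.57 on the log2 scale (SE 0.52, adjusted p = 7.56e-09, edgeR, 1 residual degree of freedom) among 636 genes called of 12586. The pair of classes was chosen after the values were seen. The endothelial value was -1.35 (adjusted p = 0.0453, edgeR) in liver sinusoidal-like cells alone and -2.27 with ribosomal protein UMIs as the library size. The neutrophil value was 1.44 with that scaling (adjusted p = 0.0601, edgeR) and 2.13 with Leiden clusters (adjusted p = 0.0751, edgeR), so its direction was kept and its call was lost under both.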

How the results depend on the processing

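No paired analysis was possible because replicate number 2 exists in HFD alone. For HFD against NCD 22 calls of the 10 genes are reported. The total was 31 without TMM, 26 without the filter on low counts, 20 with doublets removed and 22 with the lower gene minimum. Of the 20 with doublets removed, 18 were among the 22. The total was 20 under the stricter gate, over 6 classes since NK cells were then too few, where 18 had been called. DESeq2 gave 10, of which 8 were among the 22, and Leiden clusters 14, of which 11 were. Among the single fold changes called, 120 of 150 values under the planned settings kept their direction and their side of the threshold, and 30 kept the direction alone. Leaving out an HFD library left no residual degrees of freedom, and 43 of 44 such values moved by less than the spread, Cd1d1 in macrophages running from -1.88 to -1.42. With ribosomal protein UMIs as library size, H2-T23 in B cells turned to -4.65e-05 and the split was 1 higher and 21 lower. For JQF against HFD the count was 0 under every setting, and hepatocytes stayed highest for Cd1d1 in 4 of 4 libraries with Leiden clusters and with the stricter gate. Why the counts moved was not tested. NCD held 51 NK cells and 103 neutrophils.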

Other observations

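Levels in classes too small for the test showed values not described above. In plasmacytoid dendritic cells, with 27 to 222 cells a library, H2-Q7 stood at 105 CPM in NCD, 487 and 497 CPM in HFD and 242 CPM in JQF. H2-T23 stood at 301, 728, 583 and 463 CPM in the same order. The H2-Q7 levels of NCD and JQF lay below those of RNA outside cells given above, and both HFD levels lay above them. Mature dendritic cells held the highest median of the 16 classes for B2m, H2-D1, Tap1, Tap2, Tapbp and Nlrc5, at 4113, 2337, 207, 172, 362 and 333 CPM. Hepatocytes, first for Cd1d1, were last for H2-D1, H2-T23, Tap1, Tap2 and Tapbp with medians of 339, 90.5, 12.4, 8.80 and 37.1 CPM. Whether these orders hold beyond the 4 libraries was not tested.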
